A study of Mus musculus with 24 samples.

Results

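CD4+ T cells of Aim2-deficient (Aim2-/-) mice were compared after 6 h with antibodies to CD3 and CD28 and without stimulation (0 h). The comparison holds 6 of the 24 samples of the series, which are 3 Aim2-/- samples of 6 h and 3 of 0 h. They were chosen by their labels alone, and the samples of a mouse were paired by its number (Aim2-/- mice 1, 2 and 4). The mice had the C57BL6 background and the cells came from their spleens. The methods of the study describe the mice as deficient in AIM2 and name no deletion limited to T cells, and the CD4+ cells were enriched by magnetic removal of the other cells. The cells were kept in RP10 medium, and the 6 h samples received both antibodies while the 0 h samples received none. All 6 samples share the Aim2 deficiency. No sample was cultured for 6 h without the antibodies, so stimulation and time in culture cannot be told apart. The other 18 samples are Aim2-/- cells of 3 and 24 h and wild-type (WT) cells of the same 4 times from mice 1, 3 and 4, with 3 samples in each group.

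Antibodies to CD3 bind the signalling chains of the T cell receptor, and antibodies to CD28 engage a costimulatory receptor of T cells. Together they start calcium, MAP kinase, NF-kB and PI3K signalling, and a resting T cell then leaves quiescence, secretes cytokines, takes up nutrients, builds ribosomes and later divides. AIM2 is a receptor of cytosolic DNA that assembles an inflammasome in myeloid cells. Interferon-gamma, which activated CD4+ T cells secrete, induces large GTPases of the GBP and IRG families through promoter elements read by STAT and IRF factors.

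6 promoter stretches are shown because they carry the motif that all the matched GTPase genes described below had in common. The capitals mark the letters GAAANNGAA (N is any base), the core of the interferon-stimulated response element (ISRE), on either strand. Each stretch ends at the last base before the RefSeq start of its gene and is written 5′ to 3′ on the strand of the gene in build GRCm38.p6.
Gbp7, chr3:142530236-142530335, plus strand: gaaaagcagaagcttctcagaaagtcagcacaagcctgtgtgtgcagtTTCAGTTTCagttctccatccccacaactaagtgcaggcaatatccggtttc
Igtp, chr11:58199456-58199555, plus strand: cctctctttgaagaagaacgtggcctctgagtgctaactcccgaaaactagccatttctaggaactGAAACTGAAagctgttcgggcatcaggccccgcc
Irgm2, chr11:58214877-58214976, plus strand: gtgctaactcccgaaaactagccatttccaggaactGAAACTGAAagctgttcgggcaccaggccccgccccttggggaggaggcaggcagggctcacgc
Tgtp2, chr11:49064213-49064312, minus strand: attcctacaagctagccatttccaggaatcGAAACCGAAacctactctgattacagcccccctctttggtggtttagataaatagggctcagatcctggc
Cxcl9, chr5:92328080-92328279, minus strand: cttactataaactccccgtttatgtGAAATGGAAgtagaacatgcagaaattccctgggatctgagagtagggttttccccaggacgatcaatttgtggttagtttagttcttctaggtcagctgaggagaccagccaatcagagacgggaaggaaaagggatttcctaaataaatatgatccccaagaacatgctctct
Ifit3, chr19:34583369-34583528, plus strand: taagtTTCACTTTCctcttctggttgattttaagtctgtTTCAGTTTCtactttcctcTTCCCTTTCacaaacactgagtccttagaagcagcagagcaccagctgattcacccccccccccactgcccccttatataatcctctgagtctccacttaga
Gbp7 encodes a guanylate-binding protein, and Igtp, Irgm2 and Tgtp2 encode immunity-related GTPases. Cxcl9 encodes a chemokine for CXCR3-bearing cells, and Ifit3 encodes a protein of the antiviral interferon response. The 4 GTPase genes hold 1 such motif each in the bases shown. It lies 52 bases before the start in Gbp7, 34 in Igtp, 64 in Irgm2 and 70 in Tgtp2, counted from the first letter of the motif. The stretches of Igtp, Irgm2 and Tgtp2, which are genes of 1 family, share runs of letters around the motif. Cxcl9 holds it 175 bases before the start, and Ifit3 holds it 3 times, at 155, 121 and 102 bases.

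The 6 samples held between 19993612 and 21169479 counts, and 3 counts, the floor of detection used here, were worth 0.132 to 0.148 CPM (counts per 1000000 after TMM scaling of the sample totals). Bulk RNA cannot tell fewer cells of a type from less RNA per cell, and CPM are shares of a sample, so every level is relative. The T cell receptor genes Cd3d, Cd3e and Cd3g and the genes Cd4, Cd28 and Trac summed to 3667 to 3901 CPM at 0 h and to 3435 to 3539 CPM at 6 h, whereas Cd8a and Cd8b1, which mark CD8 T cells, summed to 8.12 to 10.9 and to 8.08 to 13.4 CPM. Other cells were also seen. The 8 myeloid markers summed to 409, 123 and 205 CPM at 0 h in mice 1, 2 and 4 and to 232, 78.2 and 102 CPM at 6 h. The 7 neutrophil markers summed to 289, 104 and 132 CPM and to 185, 47.2 and 53.6 CPM. B cell, basophil and mast cell, dendritic cell, NK cell and platelet markers stayed under 200 CPM in every sample. Erythroid markers ranged from 21.1 to 337 CPM at 0 h and from 23.2 to 498 CPM at 6 h. Mouse 1 had the highest sums at both times in every marker list other than that of CD4 T cells. No marker of any list was at 0 in all samples of a time.

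Reads of Aim2 were still counted in these cells. Aim2 (chromosome 1, 173350879 to 173466040, GRCm38, protein-coding) had 15.7, 20.1 and 19 CPM at 0 h in mice 1, 2 and 4 and 11.4, 10.7 and 8.18 CPM at 6 h. The samples of both times did not overlap, and the level fell by 0.86 on the log2 scale (SE 0.18, adjusted p = 2.5e-04 in edgeR's quasi-likelihood test), a call that was lost without the block for mice (adjusted p = 0.2). Gene counts give no view of single exons, so these reads do not show which part of the transcript remained. In the WT mice 1, 3 and 4 the level was 21.5, 75 and 67.5 CPM at 0 h and 11.5, 33 and 32.5 CPM at 6 h. The sample labelled WT mouse 1 lay near the Aim2-/- samples and against its label at both times.

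After 6 h the transcriptome had shifted broadly. Of 15325 genes tested, 9183 passed an adjusted p of 0.05 with the mouse as a block in the fit (called below), which is 59.9% of the genes. There were 5035 rises (32.9% of the genes tested) and 4148 falls (27.1%), so that 54.8% of the calls were rises. The counts of every list below are to be read against these shares. By more than 1 on the log2 scale, 1943 genes rose and 1434 fell. By more than 3, 175 rose and 71 fell. In 9024 of the 9183 called genes all 3 mice moved the same way. The CPM of the 3 samples of 0 h and the 3 of 6 h did not overlap in 8566 genes (55.9% of those tested). The median change over all genes tested was 0.07 on the log2 scale, and the changes below are given on this TMM scale. With sample totals as the only scaling that median was 0.19 and 63.3% of calls were rises, and with RLE size factors 50.2% were.

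**Figure D1:**
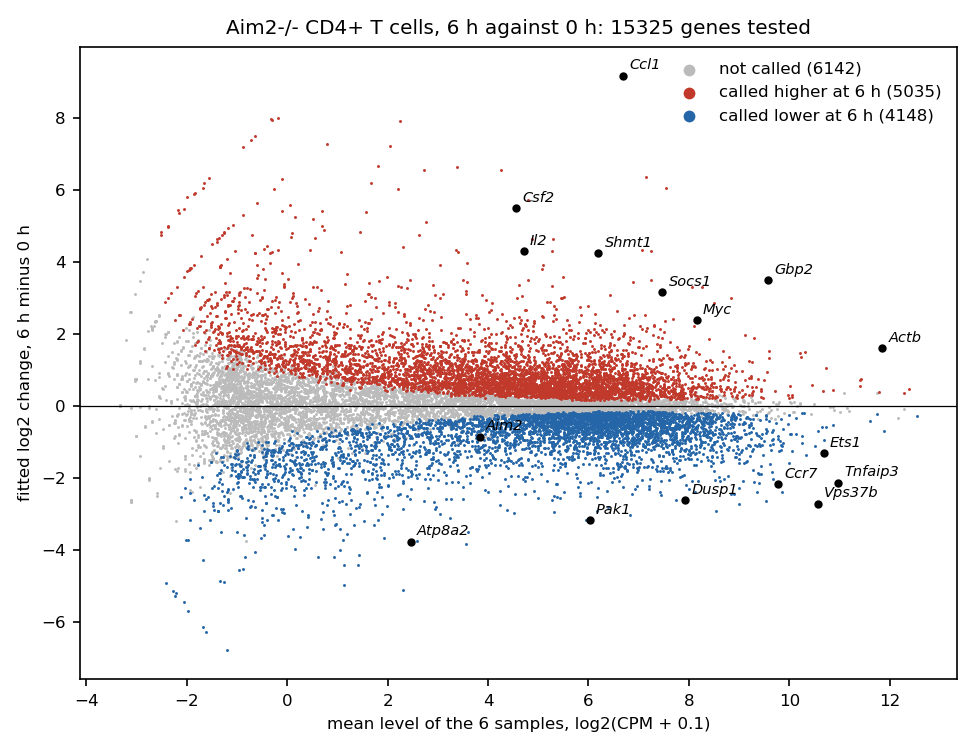
Each point is 1 of the 15325 genes tested, with its mean level over the 6 samples on the x axis, as log2(CPM + 0.1), and its fitted log2 change from 0 h to 6 h on the y axis. The 5035 genes called higher are red and the 4148 called lower are blue, and rises reach further from 0 than falls at levels above 1 CPM.

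Secreted effector genes held most of the steepest rises, with 10 of the 12 largest named by rule being cytokine, chemokine or interferon-induced genes. Of 19 cytokine genes tested, 14 rose and 2 fell, against 32.9% and 27.1% of all genes, and their median change was 2.53 on the log2 scale, or 1.82 with the genes that lay at or under the floor at 0 h set to their lower bound. Il2, the growth factor of T cells, had 3.1, 1.82 and 2.71 CPM at 0 h in mice 1, 2 and 4 and 48.7, 41.5 and 58.4 CPM at 6 h. Every 6 h sample stood above every 0 h sample, and the log2 change was 4.29 ± 0.22 (SE, adjusted p = 1.5e-12). Csf2, which encodes GM-CSF, had 1.6, 0.837 and 0.738 CPM at 0 h and 61.2, 34.7 and 42.4 CPM at 6 h, with a log2 change of 5.49 ± 0.21 (SE, adjusted p = 3.8e-14). Ifng, the Th1 cytokine, went from 31.9, 16.5 and 32 CPM to 136, 119 and 239 CPM, a log2 change of 2.62 ± 0.24 (SE, adjusted p = 6.9e-09). Mouse 4 had the highest Ifng level at 6 h and mouse 2 the lowest. The Th2 genes rose too, with Il4 at 7.1 ± 3.05 CPM at 0 h and 82.6 ± 26.5 at 6 h (SD, n = 3) and Il13 at 2.42 ± 2.1 and 55.7 ± 22.2 CPM. The basophil and mast cell markers also had higher sums at 6 h, from 135, 65.2 and 99.3 CPM to 195, 91.3 and 114 CPM in mice 1, 2 and 4. The part of these cells in the levels of Il4 and Il13 was not tested. Il17a, a Th17 cytokine, had 0.387, 0.197 and 0.689 CPM at 0 h and 20.2, 3.79 and 11 CPM at 6 h, and Il17f changed by 5.10 ± 0.39 (SE), with mouse 2 lowest at 6 h in both genes. Il3, a haematopoietic growth factor, was at or under 3 counts in each 0 h sample and reached 10.7, 8.18 and 9.05 CPM at 6 h, at least 63.4-fold higher. Tnf rose from 41.5 ± 4.92 to 238 ± 5.34 CPM. Both falls were of cytokines that restrain inflammation. Il10 had 70.8, 61.2 and 48.4 CPM at 0 h and 29.8, 19.8 and 26 CPM at 6 h, with no overlap, and changed by -1.27 ± 0.20 (SE, adjusted p = 9.7e-06), a call that was lost without the block for mice (-1.25, adjusted p = 0.05). Tgfb1 fell from 393 ± 49.5 to 238 ± 8.35 CPM, a log2 change of -0.72 ± 0.09 (SE, adjusted p = 5.9e-07). Il21, the cytokine of follicular helper cells, was at 16.1 ± 4.73 and 17 ± 1.79 CPM and was not called (95% interval -0.33 to 0.53), and neither were Il6 and Il22.

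Of the 12 chemokine genes, 9 rose and 1 fell, with a median of 4.60 (4.43 with Ccl17 at its bound). Ccl1, a ligand of CCR8, had the largest rise among genes of at least 10 CPM, from 0.678, 0.246 and 0.148 CPM in mice 1, 2 and 4 to 263, 108 and 247 CPM, a log2 change of 9.17 ± 0.49 (SE, adjusted p = 2.9e-12). Mouse 2 had the lowest level at 6 h. Ccl3, a MIP-1 chemokine, had 5.62, 1.62 and 3.15 CPM at 0 h and 312, 171 and 350 CPM at 6 h. Its neighbour and close relative Ccl4 had 5.57, 3.1 and 8.47 CPM and 393, 237 and 471 CPM, and mouse 2 was again lowest in both. The log2 changes were 6.35 ± 0.30 for Ccl3 and 6.05 ± 0.32 for Ccl4 (SE). Ccl22, a CCR4 ligand, rose from 0.92, 0.197 and 0.0985 CPM to 64.2, 10.6 and 37.9 CPM, with a wide spread between the mice. Cxcl9 rose from 1.69, 0.345 and 1.13 CPM to 40.3, 38.3 and 85 CPM and Xcl1, lymphotactin, from 24.9 ± 12.2 to 279 ± 120 CPM (SD, n = 3). Ccl5, RANTES, moved the other way, from 252, 250 and 334 CPM to 137, 126 and 153 CPM, a log2 change of -1.0 ± 0.15 (SE, adjusted p = 4.1e-06). Macrophages and dendritic cells also make CCL3, CCL22 and CXCL9. The myeloid marker sums were lower at 6 h than at 0 h in each mouse, mouse 1 had the highest at both times, and their part in these levels was not tested. NK cell markers summed to 90.2 to 162 CPM at 0 h and to 86.9 to 130 CPM at 6 h. The part of NK cells in the chemokine levels was not tested either.

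**Figure D2:**
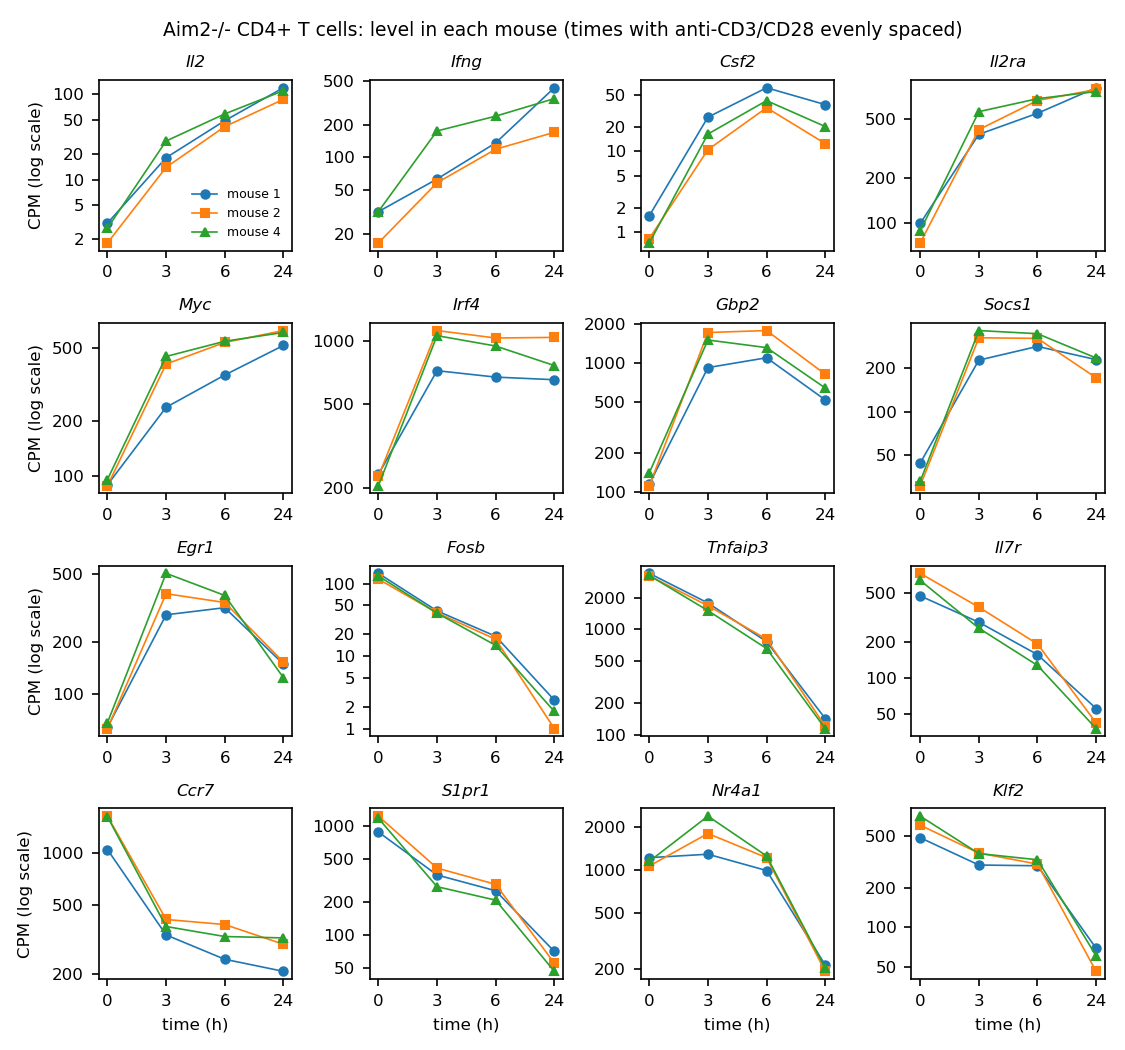
Level of 16 genes in each Aim2-/- mouse (mouse 1 circles, mouse 2 squares, mouse 4 triangles) at 0, 3, 6 and 24 h, in CPM on a log axis, with the times evenly spaced. Il2, Ifng and Myc lay above their 0 h level in every mouse at 6 h, Fosb, Tnfaip3, Il7r, Ccr7, S1pr1 and Klf2 below it, and Nr4a1 overlapped it.

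Beyond the cytokines, 8 of 12 TNF superfamily ligands rose and 2 fell. The rises numbered 5 without the 0 h sample of mouse 1, 2 or 4, without the 6 h sample of mouse 2 or 4, and without the block for mice. Tnfsf14 (LIGHT) went from 13.1, 6.65 and 9.8 CPM to 87.8, 55 and 88.7 CPM and Lta (lymphotoxin alpha) from 19, 19.5 and 22.1 CPM to 89.5, 129 and 141 CPM, with log2 changes of 2.98 ± 0.20 and 2.56 ± 0.21 (SE). Neither gene overlapped between the times. Cd40lg, the ligand for B cell help, was at 110 ± 4.48 CPM at 0 h and 127 ± 30 at 6 h (SD, n = 3) and was not called (95% interval -0.15 to 0.52). The falls were Tnfsf4 (OX40 ligand, -1.44 ± 0.21) and Fasl, the death ligand (-0.54 ± 0.13).

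Cytokine receptors leaned the other way. Of 18 cytokine receptor genes 2 rose and 10 fell, against 32.9% and 27.1% of all genes, and the median was -0.63. Il2ra, the high-affinity chain of the IL-2 receptor (CD25), rose from 100, 73.9 and 89 CPM in mice 1, 2 and 4 to 547, 666 and 685 CPM, a log2 change of 2.85 ± 0.14 (SE, adjusted p = 7.3e-13). The signalling chain Il2rb fell from 1009 ± 133 to 609 ± 52 CPM (SD, n = 3, adjusted p = 1.4e-06), and the common chain Il2rg was at 512 ± 35.8 and 567 ± 32.9 CPM and not called. Il12rb1, a chain of the IL-12 and IL-23 receptors, rose from 11.8, 7.98 and 9.65 CPM to 64.1, 89.2 and 83.5 CPM (2.99 ± 0.23), while Il12rb2 fell from 72.2 ± 7.46 to 45 ± 7.7 CPM, a call lost without the block for mice (adjusted p = 0.12). Il7r, the receptor for the survival cytokine of resting T cells, fell from 477, 733 and 641 CPM to 156, 191 and 127 CPM, a log2 change of -1.98 ± 0.15 (SE, adjusted p = 2.7e-10). Il21r fell from 1140, 988 and 1062 CPM to 272, 289 and 302 CPM (-1.89 ± 0.09) and Ifngr2, a chain of the interferon-gamma receptor, from 134, 225 and 229 CPM to 54.4, 56.3 and 50.6 CPM (-1.84 ± 0.14). In Il7r, Il21r and Ifngr2 every 6 h sample lay below every 0 h sample. Ifngr1 fell as well, from 1268 ± 75.4 to 547 ± 39.1 CPM.

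Among 19 costimulators and checkpoints 8 rose and 5 fell. Tnfrsf9 (4-1BB) rose from 594, 358 and 403 CPM to 1087, 1126 and 1080 CPM, Cd274 (PD-L1) from 149 ± 16.5 to 339 ± 36.1 CPM and Cd160 from 4.54 ± 1.7 to 28.8 ± 6.62 CPM (SD, n = 3). Cd28 itself fell from 393, 454 and 411 CPM to 219, 260 and 221 CPM (-0.85 ± 0.11), Icos from 738 ± 66.9 to 435 ± 17.8 CPM and the inhibitory receptor Ctla4 from 550, 476 and 530 CPM to 339, 256 and 313 CPM (-0.79 ± 0.12). Tnfrsf1b, the TNF receptor TNFR2, had the largest fall of this list, from 1407, 1203 and 1146 CPM to 390, 361 and 308 CPM. Pdcd1 (PD-1), Tigit, Tnfrsf4 and Tnfrsf18 were not called, and the 95% interval of Pdcd1 was -0.20 to 0.21. Cd69, an early activation marker, rose from 265, 261 and 304 CPM to 351, 401 and 488 CPM (0.57 ± 0.14, adjusted p = 0.0012). Cd44, the marker of antigen-experienced cells, fell from 427, 303 and 314 CPM to 339, 241 and 241 CPM (-0.35 ± 0.07), its samples overlapped between the times, and the call was lost without the block for mice (adjusted p = 0.18).

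The immediate early genes, which the T cell receptor switches on within minutes, did not move together. 3 of 16 rose and 7 fell, against 32.9% and 27.1% of all genes. The rises numbered 6 without the 0 h sample of mouse 1, with limma-voom or with no filter on low counts, 5 without mouse 1, without the mouse labelled WT 1 or with only the 6 samples fitted, and 7 with library totals. The zinc finger factors Egr1 and Egr2 rose, Egr1 from 63.5, 62.5 and 67.6 CPM in mice 1, 2 and 4 to 318, 341 and 375 CPM (2.41 ± 0.15 SE, adjusted p = 3.4e-11) and Egr2 from 136, 118 and 127 CPM to 298, 329 and 370 CPM (1.38 ± 0.16). Fosl1, a member of the AP-1 family, rose from 1.26, 0.64 and 1.13 CPM to 12.9, 25.3 and 21.3 CPM (4.26 ± 0.33). The other AP-1 genes of this list that were called fell. Fosb had 138, 115 and 127 CPM at 0 h and 18.8, 17.1 and 14.1 CPM at 6 h, a log2 change of -2.93 ± 0.15 (SE, adjusted p = 2.2e-12). Fosl2 went from 1658, 1607 and 1423 CPM to 303, 331 and 258 CPM (-2.40 ± 0.11), Junb from 1342, 1082 and 1150 CPM to 382, 387 and 391 CPM (-1.62 ± 0.10) and Fos from 107 ± 12.6 to 39.5 ± 4.1 CPM. Among the orphan receptors Nr4a3 fell from 1500 ± 121 to 635 ± 94 CPM (SD, n = 3), while Nr4a1 (Nur77) was at 1212, 1060 and 1142 CPM at 0 h and 985, 1212 and 1246 CPM at 6 h and was not called (95% interval -0.32 to 0.33). At 3 h, compared with the same 0 h samples, the mean levels were 1812 CPM for Nr4a1, 393 for Egr1 and 40.2 for Fosb. Fosl2, Junb, Nr4a1 and Nr4a3 had more CPM at 0 h, without the antibodies, than Egr1 or Egr2 had at 6 h. The falls are therefore measured from 0 h samples that already held these genes, and the source of those 0 h levels was not tested.

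NF-kB genes leaned downward, with 10 of 14 called lower, 1 higher and a median of -0.48. Tnfaip3 (A20), the ubiquitin-editing inhibitor of NF-kB, lost more CPM than any other gene called lower, from 3387, 3204 and 3234 CPM in mice 1, 2 and 4 to 765, 808 and 658 CPM, a log2 change of -2.14 ± 0.08 (SE, adjusted p = 3.8e-14). The 6 h samples lay far below the 0 h samples in every mouse. Tnip1, which works with A20, fell from 360, 406 and 382 CPM to 169, 159 and 144 CPM and the subunit Rel from 467, 402 and 407 CPM to 214, 244 and 237 CPM (-1.28 ± 0.10 and -0.88 ± 0.10). Tnip2 was the rise (0.30 ± 0.11, adjusted p = 0.0186), a call that was lost without mouse 2 or mouse 4 (adjusted p = 0.11 and 0.23). Nfkb1, Nfkbib and Bcl3 were not called.

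Of 16 activation factors 6 rose and 5 fell, which is near the 32.9% and 27.1% of all genes. Irf4, which scales the T cell response, rose from 231, 226 and 204 CPM to 672, 1032 and 945 CPM (1.97 ± 0.16 SE, adjusted p = 1.5e-09), with mouse 1 lowest at 6 h. Irf8 rose from 64, 31.5 and 39.2 CPM to 178, 204 and 262 CPM (2.22 ± 0.23) and Batf, the AP-1 partner of IRF4, from 68.8, 54.6 and 62.2 CPM to 106, 105 and 113 CPM (0.81 ± 0.09). Bhlhe40 fell from 1099, 708 and 764 CPM to 377, 311 and 284 CPM (-1.39 ± 0.11), and the NFAT genes Nfatc2 and Nfatc3 fell by 1.00 and 0.91, while Nfatc1 was not called. Of the 16 genes of T helper and Treg factors 4 rose and 10 fell, with a median of -0.51. The rises included the lineage factors of Th1 (Tbx21), Treg (Foxp3) and Th2 (Gata3) cells. Tbx21 went from 55.4, 32 and 38 CPM to 91.9, 111 and 124 CPM (1.36 ± 0.20 SE, adjusted p = 6.1e-06). Foxp3 went from 171, 140 and 135 CPM to 369, 309 and 260 CPM (1.07 ± 0.14 SE, adjusted p = 1.4e-06), and mouse 1 was highest at 6 h. Gata3 changed by 0.32 ± 0.08, a call lost without the 0 h sample of mouse 4 (adjusted p = 0.051). Bcl6, the factor of follicular helper cells, fell from 239, 203 and 203 CPM to 122, 107 and 98.9 CPM (-0.98 ± 0.11), and Stat3, Stat5a and Stat5b fell by 0.94, 0.91 and 1.06. In the 14 Treg signature genes that the study names, 4 rose (Il2ra, Capg, Tnfrsf9 and Gzmb), 4 fell (Itgae, Ctla4, Il2rb and Ikzf2) and 6 were not called. The call of Ikzf2 was lost without the block for mice (adjusted p = 0.15). The call of Gzmb, a cytotoxic protease, was lost without mouse 2 or mouse 4 (adjusted p = 0.17 and 0.12).

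Feedback genes of receptor signalling changed in both directions. Of 21, 7 rose and 12 fell. Socs1, an inhibitor of JAK kinases, rose from 44, 30.6 and 32.9 CPM to 284, 323 and 348 CPM (3.15 ± 0.21 SE, adjusted p = 5.5e-11), while its relative Socs3 fell from 476 ± 19.1 to 215 ± 33.4 CPM (SD, n = 3). The MAP kinase phosphatases were also divided. Dusp6 rose from 31.2, 21.3 and 24.6 CPM to 82, 104 and 102 CPM, and Dusp1, Dusp4 and Dusp10 fell by 2.63, 1.34 and 1.68 on the log2 scale, Dusp1 from 485, 369 and 402 CPM to 73.1, 72.1 and 56.6 CPM. The decay factors Zfp36l2 and Zc3h12a (Regnase-1) fell by 1.53 and 1.16. For the receptor and its proximal kinases and adaptors 7 of 21 genes rose and 6 fell, all by less than 1 and near the shares of all genes. The adaptor Lcp2 (SLP-76) rose from 312, 309 and 296 CPM to 497, 647 and 600 CPM, and Plcg1, the phospholipase that opens calcium signalling, fell from 606, 732 and 640 CPM to 369, 335 and 294 CPM. Cd4 fell from 930 ± 101 to 573 ± 90.7 CPM, whereas Cd3d and Cd3e were not called.

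Most genes of the resting state fell. Of the 20 genes of quiescence and the naive state 15 fell and 2 rose, against 27.1% and 32.9% of all genes, and the median was -1.07. Ccr7, which brings T cells to lymph nodes, had 1049, 1640 and 1626 CPM at 0 h in mice 1, 2 and 4 and 242, 385 and 328 CPM at 6 h (-2.17 ± 0.10 SE, adjusted p = 2.5e-13). S1pr1, which lets them leave, had 884, 1236 and 1181 CPM and 255, 292 and 209 CPM (-2.15 ± 0.14 SE, adjusted p = 4.6e-11). In both genes mouse 1 had the lowest 0 h level. The factor Klf2, which drives S1pr1, fell less, from 485, 605 and 709 CPM to 296, 305 and 329 CPM (-0.94 ± 0.15), and Foxo1 fell from 400 ± 18.1 to 158 ± 20.8 CPM. Lef1 and Tcf7, partners of beta-catenin in naive cells, fell by 1.34 and 0.80, and Tob1, an antiproliferative factor, by 1.59. Bach2 and Slfn2, both known to keep T cells quiet, were the rises, Bach2 from 80, 119 and 110 CPM to 151, 239 and 208 CPM and Slfn2 from 469, 582 and 612 CPM to 753, 987 and 956 CPM. Of 21 homing receptors and integrins 16 fell and 2 rose, which were Ccr4, the receptor of CCL22 (1.52 ± 0.17), and Itgb3 (0.48 ± 0.09). Brakes of PI3K and mTOR signalling fell in 8 of 11, among them Pik3ip1 from 89.5, 133 and 133 CPM to 44.9, 41.8 and 39.5 CPM, and Inpp4b rose (0.43 ± 0.11), a call lost without the block for mice (adjusted p = 0.083).

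Interferon-induced genes rose. All 16 GBP and IRG genes rose, by a median of 1.64, and 16 of 21 type I interferon-stimulated genes rose with none lower, by a median of 0.82. In every one of the 16 GTPase genes the 3 samples of 6 h lay above the 3 of 0 h. Gbp2 had 114, 111 and 140 CPM at 0 h in mice 1, 2 and 4 and 1100, 1791 and 1319 CPM at 6 h (3.48 ± 0.20 SE, adjusted p = 7.0e-12). Iigp1 had 49.4, 58.3 and 63.9 CPM and 513, 570 and 592 CPM (3.29 ± 0.17). Gbp11 rose most on the log2 scale, from 2.42, 4.33 and 2.51 CPM to 61.3, 88.8 and 76.3 CPM (4.62 ± 0.26), and Gbp9 and Irgm2 least (0.40 ± 0.15 and 0.44 ± 0.09). The call of Gbp9 was lost without mouse 2 (adjusted p = 0.13), without either of its samples or either of those of mouse 1 (0.066 to 0.14), and without WT mouse 3 (0.05). The 4 genes whose promoters are printed above changed by 1.47 ± 0.14 (Gbp7), 1.21 ± 0.09 (Igtp), 0.44 ± 0.09 (Irgm2) and 0.89 ± 0.10 (Tgtp2). Genes of this family lie beside each other and share sequence. Gbp2, Gbp3, Gbp5 and Gbp7 span chromosome 3 from 142493978 to 142638008 and 6 others chromosome 5 from 105014150 to 105346472 (GRCm38). Reads of near-identical copies such as Tgtp1 and Tgtp2 may have been split between them. Among the type I genes Ifit3 went from 4.6, 3.89 and 3.54 CPM to 22.9, 34.5 and 30.8 CPM, Usp18, which removes ISG15, from 7.8, 12.2 and 11.3 CPM to 48.6, 65.6 and 58.3 CPM and the Z-nucleic acid sensor Zbp1 from 57.8, 52 and 57.6 CPM to 231, 278 and 272 CPM. Isg15, Irf9, Ddx58, Rsad2 and Mx2 were not called, although without mouse 1 Isg15 (0.48, adjusted p = 0.012) and Mx2 (0.95, adjusted p = 0.0052) were called higher.

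The ISRE core was counted in the 250 bases before the RefSeq start for the 10599 tested genes that matched a promoter by symbol. It was present in 9 of the 9 GBP and IRG genes matched, 7 of 15 type I interferon-stimulated genes and 4 of 8 chemokine genes (Ccl1, Ccl3, Cxcl10 and Cxcl9), against 6.42% of all 10599. The share was 7.38% in genes called higher, 5.17% in genes called lower and 6.41% in genes not called, and 8.68% and 5.05% in genes that rose and fell by more than 1. Of the 36 lists with a matched promoter, 15 held it in no gene, among them 26 ribosome biogenesis genes, 16 chaperone genes and 16 quiescence genes. At a share of 6.42%, few matches are expected in lists of this size, so these counts cannot show a lower share. Lists that are not of the interferon response held it too, with 5 of 16 costimulators and checkpoints (31.2%), 3 of 11 cytosolic ribosomal proteins (27.3%), 4 of 16 nuclear genes of oxidative phosphorylation (25%), 2 of 9 Treg signature genes (22.2%), 2 of 12 immediate early factors and 2 of 12 TCA cycle genes (16.7% each). Other letters were searched in the same way on both strands. The AP-1 site TGANTCA was in 4.32% of genes called higher, 3.68% of genes called lower, 4.55% of genes not called and 4.23% of all. In genes that changed by more than 1 it was in 5.93% of rises and 4.45% of falls, and among cytokine genes in 4 of 17 (Il17a, Il6, Il9 and Lif). The cAMP response element TGACGTCA was in 2.12% of genes called higher, 3.78% of genes called lower, 2.41% of genes not called and 2.69% of all, and in 1.45% of rises and 4.09% of falls by more than 1. The E-box CACGTG, which MYC and its partners read, was in 8.98% of genes called higher, 8.01% of genes called lower, 7.77% of genes not called and 8.27% of all. By more than 1 the order was the reverse, at 7.74% of rises and 8.90% of falls. The NF-kB site GGANTTTCC was in 1.13%, 0.946%, 1.07% and 1.06% of the same 4 groups and in 1.37% of rises and 1.44% of falls by more than 1. A match is a stretch of letters and does not show that a factor binds there.

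**Figure D3:**
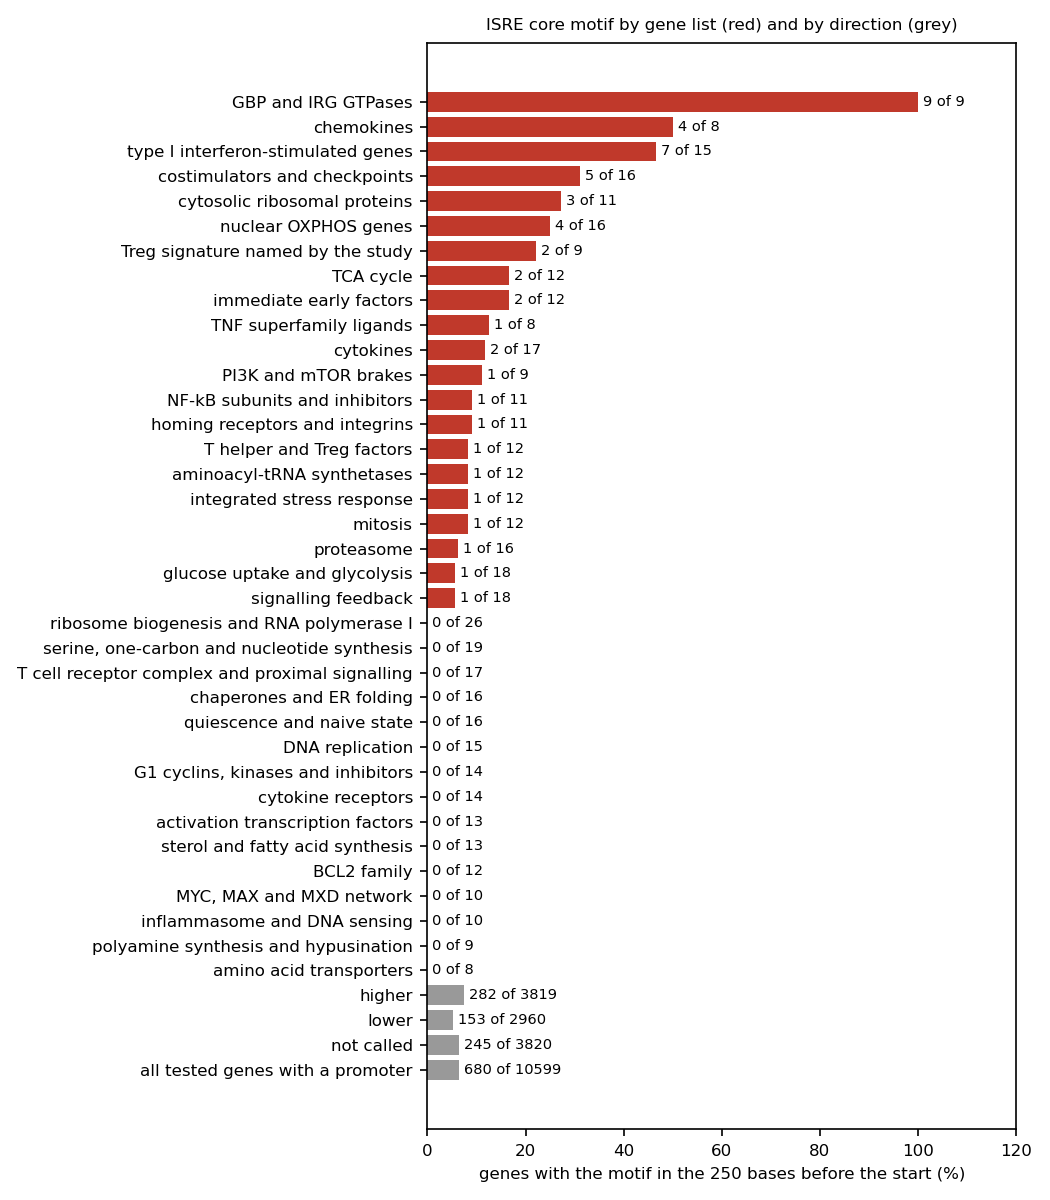
Share of genes, in percent, whose 250 bases before the start hold the ISRE core on either strand, for the 36 gene lists with a matched promoter (red bars, in order of their share) and for genes by direction of change (grey bars), with the counts beside each bar. The GBP and IRG bar reaches 100% (9 of 9), 15 lists have no such gene, and the bar of all tested genes with a promoter stands at 6.42%.

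Myc and genes of ribosome biogenesis rose. Myc, the driver of growth in activated T cells, rose from 89.1, 88.1 and 95.3 CPM in mice 1, 2 and 4 to 356, 537 and 545 CPM (2.37 ± 0.14 SE, adjusted p = 7.0e-12), with mouse 1 lowest at 6 h. Its antagonists Mxi1 and Mxd4 fell from 207, 202 and 200 CPM to 46.7, 40.3 and 36.1 CPM and from 296, 332 and 313 CPM to 94.3, 75.5 and 59 CPM (-2.31 ± 0.09 and -2.07 ± 0.12), and its partner Max was not called. Of 11 genes of the MYC, MAX and MXD network 2 rose and 6 fell. Of 30 genes of ribosome biogenesis and RNA polymerase I 29 rose and none fell, with a median of 1.36. Nhp2 and Gar1, subunits of the particle that pseudouridylates ribosomal RNA, went from 38.4, 31.1 and 38.8 CPM to 126, 181 and 216 CPM and from 26.3, 22.3 and 29.1 CPM to 97.8, 121 and 151 CPM. Nucleolin (Ncl) gained 1.06 ± 0.11 on the log2 scale, from 1068, 1081 and 1119 CPM to 1705, 2720 and 2522 CPM, and mouse 1 was lowest at 6 h in all 3 genes. Of 15 cytosolic ribosomal proteins 5 rose and 3 fell, with a median of 0.12 and changes of -0.26 to 1.02. None of the falls was called without mouse 4, without its 6 h sample, without the block for mice or with library totals, and 1 was without the 6 h sample of mouse 1. Rpl4 (95% interval -0.22 to 0.09) and Rpl8 (-0.21 to 0.14) were among the 6 protein-coding genes with the most CPM whose interval lay within -0.25 to 0.25, as it did for 614 protein-coding genes. Srgn, Coro1a and Arhgdia were others of these 6, with changes of 0.04 ± 0.10, 0.08 ± 0.08 and 0.04 ± 0.09. Ribosomal protein genes have processed copies in the genome, among which reads may be split, so their levels are uncertain.

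Most genes of serine, one-carbon and nucleotide synthesis rose. Of 22 tested 20 rose and none fell, by a median of 1.20. Shmt1, which passes the carbon of serine to folate, went from 6.25, 6.25 and 9.11 CPM to 86.3, 167 and 164 CPM (4.23 ± 0.20 SE, adjusted p = 3.9e-13), and its mitochondrial partner Shmt2 from 65, 65 and 79.2 CPM to 237, 305 and 337 CPM. Polyamine synthesis and hypusination had 5 of 11 genes higher and 4 lower. Srm, spermidine synthase, rose from 21.5, 17.4 and 19.2 CPM to 156, 246 and 250 CPM (3.44 ± 0.18), whereas Odc1, the enzyme that opens polyamine synthesis, fell from 1048, 841 and 984 CPM to 507, 466 and 476 CPM (-0.98 ± 0.10). Eif5a, the protein that spermidine modifies, rose from 401, 346 and 439 CPM to 885, 1292 and 1266 CPM. Of 20 aminoacyl-tRNA synthetases 18 rose, led by Wars (57.4, 51.1 and 58.1 CPM to 237, 275 and 273 CPM), and Qars fell by 0.22 (adjusted p = 0.00864). The call of Qars was lost without mouse 2 (adjusted p = 0.06), its 6 h sample (0.05) or mouse 4 (0.085), and with library totals (0.23). Chaperones rose in 18 of 20 and proteasome subunits in 18 of 19, with none lower in either list. Hspd1, the mitochondrial chaperonin, went from 55.9, 52.7 and 60.2 CPM to 148, 236 and 223 CPM, and Psme2, a subunit of the interferon-induced proteasome activator, from 82, 77.2 and 99.7 CPM to 180, 208 and 235 CPM.

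In energy metabolism 12 of 19 genes of glucose uptake and glycolysis rose and 4 fell, with 2 falls without mouse 4, without its 6 h sample or with library totals. Hk2, hexokinase 2, rose from 12.3, 7.88 and 9.55 CPM to 32, 46.4 and 41.9 CPM (1.99 ± 0.18) and Aldoa from 357, 350 and 372 CPM to 654, 734 and 717 CPM (0.96 ± 0.09). The lactate exporter Slc16a3 fell from 105, 70.4 and 78.4 CPM to 34, 21.2 and 22.7 CPM (-1.71 ± 0.15). Gapdh had 8.85 ± 1.28 CPM at 0 h and 8.08 ± 0.248 at 6 h (SD, n = 3), and this gene too has many processed copies, so its counts are uncertain. Of the nuclear genes of oxidative phosphorylation 15 of 24 rose and none fell, by a median of 0.35, for example Cox5a from 74.6, 69.6 and 88.4 CPM to 137, 149 and 175 CPM. Of the 13 mitochondrially encoded genes 7 were tested and 6 rose. This count was 1 without the 0 h sample of mouse 1 and 1 without the block for mice, and 3 in DESeq2, with only the 12 Aim2-/- samples fitted, without mouse 4 and without either of its samples. mt-Cytb was at 4408, 3577 and 5365 CPM and 6464, 4704 and 7465 CPM, so that mouse 2 at 6 h lay below mouse 4 at 0 h (0.47 ± 0.14, adjusted p = 0.00673), and its call was lost without the 0 h sample of mouse 1 (adjusted p = 0.06) and without the block (0.1). Genes of the mitochondrial genome took 1.39% to 2.06% of counts at 0 h and 1.77% to 2.91% at 6 h. mt-Co2, mt-Co3, mt-Atp6, mt-Atp8, mt-Nd3 and mt-Nd4l were not among the tested genes, so this share reflects only a part of that genome. Sterol and fatty acid synthesis rose in 13 of 20 genes, led by Lss (1.87 ± 0.12) and Sqle (1.56 ± 0.11). Amino acid transporters were called at about the shares of all genes, with 4 of 11 higher, such as the glutamine transporter Slc1a5 (362, 333 and 341 CPM to 694, 838 and 974 CPM), and 3 lower, such as Slc38a2 (483, 571 and 526 CPM to 225, 211 and 203 CPM). The integrated stress response and the TCA cycle had 4 of 12 and 8 of 14 genes higher and 4 and 1 lower. The falls numbered 2 without the block for mice in the stress response and, in the TCA cycle, 2 without the 0 h sample of mouse 1 or without WT mouse 3.

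Of 18 cell cycle genes of G1 7 rose and 8 fell, with 5 falls without the block for mice. Ccnd2 and Cdk4, the cyclin and kinase of G1, rose from 255, 273 and 263 CPM to 704, 1238 and 1034 CPM and from 89.7, 80 and 97.9 CPM to 236, 324 and 355 CPM (1.87 ± 0.14 and 1.76 ± 0.10), and the inhibitor Cdkn1b (p27) fell from 331, 393 and 353 CPM to 174, 157 and 130 CPM (-1.24 ± 0.12). Of 18 DNA replication genes 2 rose, 3 fell and 13 were not called, and without mouse 4 or without the 6 h sample of mouse 2 there was 1 fall. Mcm2, a subunit of the replicative helicase, had a mean of 94.6 CPM in the 0 h samples and 122 CPM in the 6 h samples, and of 108 and 504 CPM in those of 3 and 24 h (n = 3 each). Of 14 mitosis genes 9 rose, by up to 1.73 on the log2 scale, and none fell, and without the block for mice 5 rose. Plk1, a mitotic kinase, was at 10, 6.94 and 8.81 CPM and 23.6, 10.7 and 21.9 CPM at 0 and 6 h and at a mean of 141 CPM at 24 h. The samples of 0 and 6 h did not overlap in 5 of the 14 mitosis genes, against 55.9% of all genes tested. Among the BCL2 family 8 of 13 rose, including the survival gene Bcl2 (101, 92.6 and 84.4 CPM to 188, 262 and 214 CPM) and the death genes Bid and Bax (1.47 ± 0.10 and 1.10 ± 0.10), and 4 fell, including the death genes Bmf, Pmaip1 and Bcl2l11 (-1.35 ± 0.18, -0.91 ± 0.11 and -0.75 ± 0.07).

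**Figure D4:**
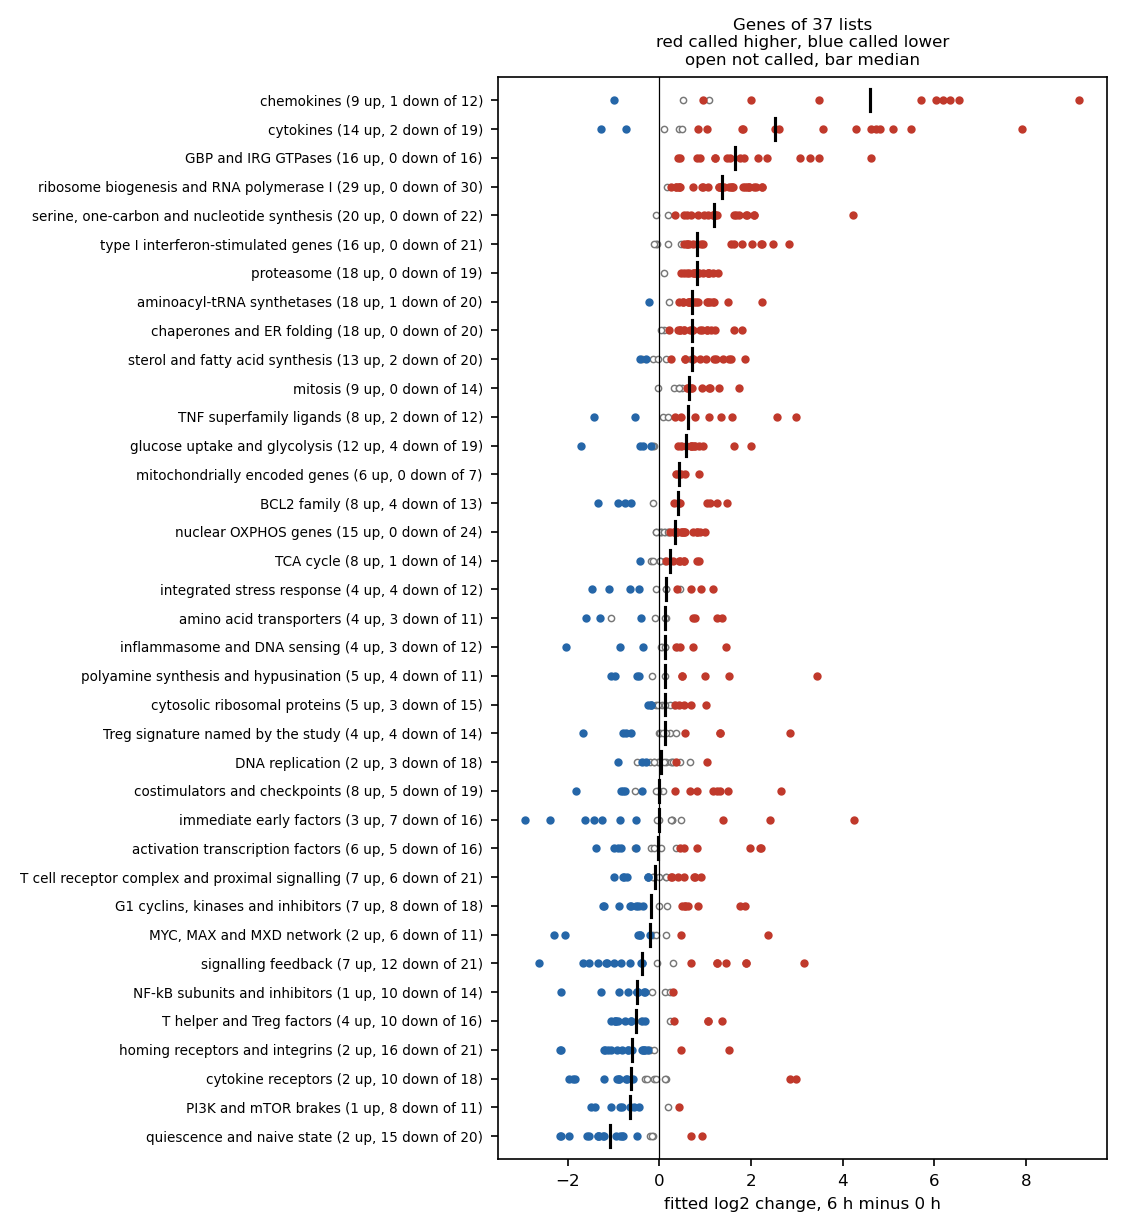
Fitted log2 change from 0 h to 6 h (x axis) of every tested gene of 37 lists (rows, ordered by their median, which the black bar marks), with called rises in red, called falls in blue and genes not called as open circles. Chemokines and cytokines have the highest medians (4.60 and 2.53), and quiescence genes the lowest (-1.07).

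Among inflammasome and DNA sensing genes, 12 of 13 were tested, 4 rose and 3 fell, which is close to the 32.9% and 27.1% of all genes. Samhd1, a nucleotide hydrolase, rose from 574, 674 and 647 CPM to 1548, 2056 and 1642 CPM (1.46 ± 0.11) and Tmem173 (STING) from 105, 120 and 105 CPM to 191, 198 and 161 CPM (0.74 ± 0.11). The AIM2 adaptor Pycard and its protease Casp1 were not called (95% intervals -0.07 to 0.33 and -0.20 to 0.32). Il1b, the cytokine that the inflammasome releases, fell from 18.2, 5.07 and 8.52 CPM to 4.35, 1.34 and 1.97 CPM (-2.03 ± 0.36). Il1b is a product of myeloid cells, and 5 of 8 myeloid markers fell with it, among them Cd14 (-2.54 ± 0.39) and Adgre1 (-2.00 ± 0.53), while Cd68 rose (0.37 ± 0.16). Of 7 neutrophil markers Mpo (-1.24 ± 0.20) and Elane (-1.10 ± 0.24) were called lower and the other 5 were not called. Adgre1 and Elane lost their calls without the block for mice (adjusted p = 0.11 and 0.17). The part of these cells in the fall of Il1b was not tested.

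By the size of change, 2 of the 12 largest rises and 11 of the 12 largest falls named were in none of the lists. The rises were Crabp2, which carries retinoic acid to the nucleus, from 0.194, 0.0985 and 0.295 CPM to 12.2, 25.6 and 23.3 CPM (6.64 ± 0.46), and Akr1c18, a steroid-metabolising enzyme, from 0.0969, 0.0985 and 0.197 CPM to 11.5, 7.63 and 19.2 CPM (6.54 ± 0.32). The largest fall among genes that met the naming rule was that of Atp8a2, a lipid flippase. It fell from 14.1, 6.94 and 9.11 CPM to 0.527, 0.878 and 0.722 CPM (-3.78 ± 0.24). The rule asked for a mean of at least 10 CPM at the higher time and no overlap, and left out clone names, gene segments and pseudogenes. Of all genes tested, 71 were called lower by more than 3, so many steep falls were outside the rule. Gjb2, a gap junction protein, and Hey1, a target of Notch, fell from 15.9, 7.78 and 9.16 CPM to 0.967, 0.739 and 0.674 CPM and from 24.4, 17.2 and 24.6 CPM to 1.93, 2.26 and 1.59 CPM. Pak1, a kinase of the cytoskeleton, fell from 125, 110 and 117 CPM to 15.7, 11.1 and 12.1 CPM (-3.19 ± 0.11 SE, adjusted p = 1.2e-14), the smallest adjusted p of the 12 falls. Klf4, a factor of quiescent and myeloid cells, fell from 96, 54.9 and 60.2 CPM to 14.5, 7.63 and 6.06 CPM, and Pou6f1 from 549, 756 and 669 CPM to 95.3, 92.7 and 72 CPM. The matrix genes Fn1 and Thbs1, which macrophages and platelets also express, fell from 58.3, 25.7 and 25.8 CPM to 8.65, 3.14 and 3.18 CPM and from 18.7, 12.4 and 12.2 CPM to 2.28, 1.25 and 2.02 CPM. Fn1 was highest in mouse 1 at both times, as were the myeloid markers. The remaining falls of the 12 largest were Ctsf, Tdrp and Cyp2d22 (-3.13 ± 0.25, -3.03 ± 0.14 and -2.98 ± 0.19).

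By CPM, which is a share of reads and not scaled to transcript length, beta-actin gained most among the called genes. Actb went from 1882, 1685 and 1907 CPM in mice 1, 2 and 4 to 5486, 5108 and 6057 CPM (1.60 ± 0.11 SE, adjusted p = 1.1e-10). Its partners of the cytoskeleton Tmsb4x and Lcp1 rose from 2145, 1731 and 2285 CPM to 3496, 2959 and 3782 CPM and from 746, 604 and 635 CPM to 1617, 2126 and 1897 CPM, and the chaperone Hsp90ab1 from 1951, 2036 and 2102 CPM to 2635, 4029 and 3567 CPM. After Tnfaip3 the largest losses were those of Vps37b, a subunit of the ESCRT machinery, from 2367, 2806 and 2726 CPM to 397, 434 and 366 CPM (-2.72 ± 0.10 SE, adjusted p = 3.8e-14), and of the elongation factor Eef2, from 4183, 5177 and 4693 CPM to 2477, 3538 and 2700 CPM. Ets1, a factor of resting T cells, lost 1.31 on the log2 scale and Gimap6, a GTPase of lymphocyte survival, 1.36, while H2-K1, an MHC class I chain, changed by -0.29 ± 0.10 (adjusted p = 0.0139). The call of H2-K1 was lost without mouse 4 (adjusted p = 0.098) or its 6 h sample (0.088), and with library totals (0.13). Together the genes called higher took 20.6% to 22.5% of the counts of a sample at 0 h and 37.1% to 41.1% at 6 h. This describes genes chosen by the same contrast. Genes called lower had longer transcripts, with a median longest transcript of 3971 bases against 2664 in genes called higher and 2998 in all genes tested, and the GC content was alike at medians of 49.1%, 49.7% and 49.6%.

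**Figure D5:**
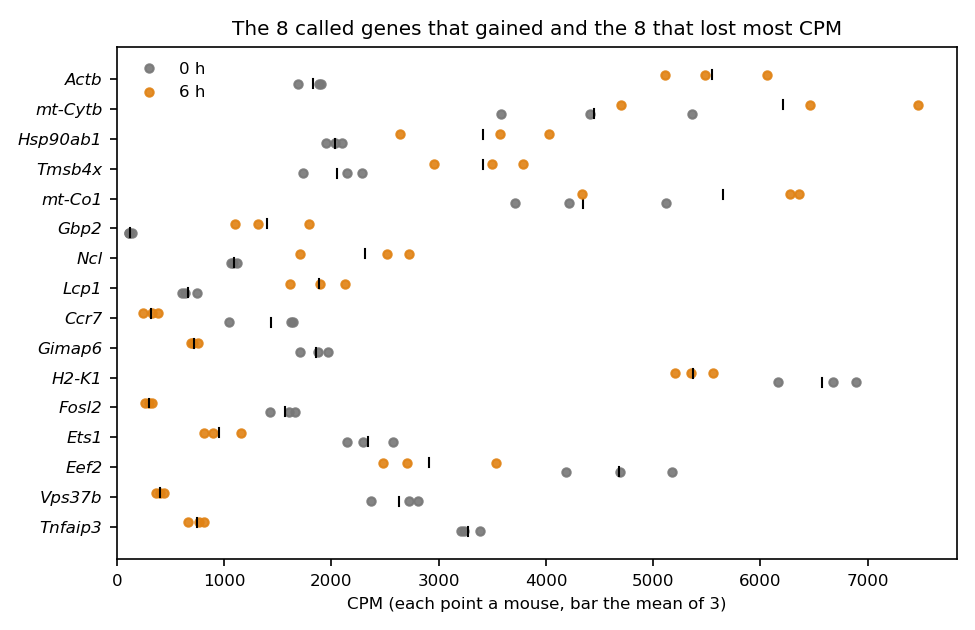
Level in CPM (x axis, from 0) of the 8 called genes that gained and the 8 that lost most mean CPM, with each Aim2-/- mouse as a point at 0 h (grey) and 6 h (orange) and the mean of 3 mice as a black bar. The points of both times do not overlap for Actb, which rose from a mean of 1825 to 5550 CPM, nor for Tnfaip3, which fell from 3275 to 744 CPM.

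The same 6 h response was measured in WT cells, and the difference between both responses was tested as an interaction. It was called for 717 genes (4.68% of those tested), of which 353 rose more or fell less in Aim2-/- cells and 364 the reverse. This count depended on single mice. It was 547 without the mouse labelled WT 1, whose Aim2 level goes against that label, 0 without WT mouse 3 (edgeR, where 2204 genes had an unadjusted p under 0.05), 9 without Aim2-/- mouse 1 and 4 without the block for mice. Of the 12 chemokine genes 1 was called, which was Ccl3. Of the 11 genes of the MYC, MAX and MXD network 2 were called, Myc and Mxd4. Ccl3 changed by 6.35 in Aim2-/- and 8.81 in WT cells, a difference of -2.45 ± 0.63 (SE, adjusted p = 0.0314), and Myc by 2.37 and 3.21, a difference of -0.84 ± 0.18 (adjusted p = 0.0156). Without the mouse labelled WT 1 the differences were -2.53 (adjusted p = 0.0813) and -0.96 (adjusted p = 0.021). Aim2 itself changed by -0.86 and -1.06, a difference of 0.20 ± 0.24 that was not called.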

How the data were processed

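The authors isolated polyadenylated RNA, prepared stranded TruSeq libraries, sequenced single-end reads and aligned them with STAR to GRCm38. They deposited 1 table of raw read counts per gene for all 24 samples. The methods of the study give counts per gene with no counter named in 1 passage and quantification with RSEM in another. The deposited values are whole numbers, and which passage applies to them is not stated. The strand setting and the tool versions are not given in the sources used here, so overlapping and antisense genes are uncertain. Per the submitters' processing notes edgeR and DESeq2 were also used. No column held an author's comparison.

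From the counts, genes with enough reads (filterByExpr of edgeR 4.0.16, minimum count 10) were kept, which left 15325 of 31367 genes with a count and 99.93% of counts. Samples were scaled by TMM, and a quasi-likelihood model was fitted over all 24 samples in R 4.3.3, with the mouse as a block and 1 effect for each stimulated time in each genotype. p-values were adjusted by Benjamini-Hochberg over all genes tested, and below 0.05 a gene was called. Standard errors came from the F statistic, intervals are 95% intervals, and levels are CPM per sample. The common dispersion was 0.00956, which is a biological coefficient of variation of 9.78%. Intervals and floors cover the spread of these samples or counting error only. The mouse numbers of the labels pair the samples. The 18 pairs of Aim2-/- samples of the same mouse correlated at 0.232 to 0.567 in their deviations from the group means, against -0.432 to 0.0123 for the 36 pairs of different mice at different times. Deviations within a group cancel out, so positive values for the same mouse force negative ones between mice. The ranges are therefore not independent of each other.

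Gene positions are from GENCODE M21 (GRCm38), which held 54409 of 54446 identifiers, and promoters from RefSeq (GRCm38.p6), matched by symbol for 10599 genes. DESeq2 1.42.0, limma 3.58.1 and the settings of the closing section served as alternatives. Members, lists and tests were chosen with earlier results of these data known. Genes were named by rule: Aim2, the 12 largest rises and falls with at least 10 CPM and no overlap, up to 3 members of each list in each direction, the 8 largest gains and losses of CPM, 6 steady genes, and hallmarks of activation. Genes of at least 10 CPM with the largest called differences from the WT response in each direction were also named by rule. A further 57 list members were named after their values were seen. Some of the genes so named are not reported here.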

Additional observations from a re-analysis of the deposited data

Results flagged for a closer look

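The test of the difference between the 6 h responses of Aim2-/- and WT cells (log2 change in Aim2-/- minus that in WT) called 717 genes, of which 54 are named in the text. Of these 54 differences, 45 were below 0, and over all 717 calls 364 were below 0 and 353 above. Some of the 54 were named for this difference itself and others after their values were seen. Their balance therefore does not describe that of the 717. Of the inducible secreted and surface genes, the differences were -2.45 for Ccl3, -1.04 for Tnf, -1.04 for Cd40lg, -1.06 for Ccr4, -0.78 for Tnfrsf9, -0.96 for Cd274, -1.71 for Slamf7 and -0.71 for Pdcd1. Among genes that fell less, or did not fall, in WT cells the differences were -1.27 for Fn1, -0.48 for Tgfb1, -0.73 for Il21r, -0.57 for Tnfrsf1b, -0.54 for Rel, -0.82 for Fos, -0.93 for Nr4a3, -0.89 for Dusp4, -0.46 for Stat3, -0.49 for Pfkp and -0.55 for Slc3a2. For the transcription factors and feedback genes they were -1.36 for Irf8, -1.18 for Tbx21, -1.01 for Atf3, -0.79 for Nr4a1, -0.83 for Nfatc1, -0.51 for Nfkb1, -1.09 for Spry1, -1.05 for Dusp6 and -0.55 for Lcp2. Growth, metabolism and cytoskeleton genes differed by -0.84 for Myc, -0.91 for Ccnd2, -1.08 for Hk2, -0.46 for Aldoa, -1.21 for Gapdh, -0.66 for Slc7a1, -0.71 for Hspd1, -0.71 for Hsp90ab1, -0.63 for Ncl and -0.70 for Lcp1. The counts of Gapdh are uncertain, since it has many processed copies. The interferon-induced GTPases differed by -1.0 for Iigp1, -0.76 for Gbp7, -0.46 for Igtp, -0.60 for Irgm2 and -0.61 for Tgtp2. Among other genes with large downward differences they were -1.87 for Spin4 and -1.60 for Fnip2. The 9 upward differences were 2.00 for Cela1, 1.72 for Tubb3, 1.36 for Thra, 1.35 for Emc9, 0.78 for Klf2, 0.70 for Tcf7, 0.62 for Sesn1, 0.59 for Pycard and 0.58 for Mxd4. The adjusted p in edgeR was 0.00984 to 0.0468. Without WT mouse 3 none of the 54 was called (adjusted p of 0.0778 to 0.236), and without the block for mice none was (0.052 to 0.43). Without the mouse labelled WT 1, 16 of them were not called, Ccl3, Fn1 and Irf8 among them, and without WT mouse 4, 21 were not.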

How the results depend on the processing

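The count of called genes was 9183 and ran from 7840 without the block for mice to 9331 with limma-voom, and from 7808 to 9270 when a mouse or sample was left out. Of the 7840 genes called without the block, 7825 were also called with it, in the same direction. For changes over 1 on the log2 scale the leave-out range was 3014 to 3402, for the share of calls that rose 50.8% to 55.4%, and for the lists with a median above 0 it was 22 to 26 of 37. The share of rises was 50.2% with RLE size factors and 63.3% with library totals. Of the 275 genes named, none reversed. Without the block 21 lost their call, among them Aim2, Cd44, Il10 (adjusted p = 0.05), Il12rb2, Ikzf2, mt-Cytb and Inpp4b, and library totals ended 10 calls, H2-K1 and Qars among them. Leaving out mice 1, 2 or 4 ended 2, 9 and 12 calls. The call of mt-Co1 was lost most often, in 13 settings. Il22 was not tested with a minimum mean of 1 CPM, nor with only the 6 compared or only the 12 Aim2-/- samples fitted.

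The count of genes whose response differed from WT was the unstable result. It was 717, and 4 without the replicate block, 1276 with no filter on low counts, 1230 in DESeq2, and between 0 and 799 when a mouse was left out, with 0 without WT mouse 3, 9 without Aim2-/- mouse 1, 799 without Aim2-/- mouse 2, 344 without Aim2-/- mouse 4 and 339 without WT mouse 4. The cause was not tested. For genes at or under 3 counts in a sample the depth gave only a bound of the fold.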
